A study of Mus musculus with 3 samples.

Results

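The interval around Grem1 and Fmn1 on mouse chromosome 2 held 5 of the 31113 peaks called for RNA polymerase II (RNAP2) and for Med12 in distal forelimb. It was set as chr2:113067893-113698803 (build mm9), from 100 kb beyond one outer end of the gene pair to 100 kb beyond the other, with genes taken from GENCODE vM1. A peak belonged to it when at least 1 bp lay inside. RNAP2 gave 1 of its 20479 peaks and Med12 gave 4 of its 10634. No peak of either list lay within 1 kb of an annotated start of Grem1 or of Fmn1. A single peak, from Med12, lay in an Fmn1 intron, with a p-value short of the threshold of 1e-05 in the study's methods. The interval had a single site with both proteins, at the start of the neighbouring gene Arhgap11a.

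Grem1 encodes Gremlin 1, a secreted protein that binds and blocks bone morphogenetic proteins (BMPs). In the limb bud, Grem1 made by the mesenchyme keeps BMP activity low, and this sustains the feedback between Sonic hedgehog from the posterior mesenchyme and fibroblast growth factors from the overlying ectodermal ridge. Fmn1 encodes Formin 1, an actin-nucleating protein, and its introns and the DNA next to it are known to hold long-range elements that drive Grem1 in limb mesenchyme, so that deletions in Fmn1 can cause limb defects through loss of Grem1. RNAP2 is the enzyme that transcribes protein-coding genes, and Med12 is a subunit of the kinase module of Mediator, the complex that links factors bound at enhancers to RNAP2 at promoters.

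The data were chromatin immunoprecipitation sequencing (ChIP-seq) peak lists from distal forelimbs of mouse embryos of normal gestation. The 3 samples were 1 library with an antibody against RNAP2, 1 with an antibody against Med12 and 1 input library without antibody, for which no peak list was used here. The sample labels give the stage as E12.5 for each library, whereas the design text of the series gives E11.5. The paper also gives E12.5 for its ChIP-seq tissue, and its methods describe the limb tissue of that stage as wild type. No treatment, mutant allele or strain is named for any group, and the dissected tissue was dissociated into single cells before fixation. The study used such sites to look for enhancers active in the limb.

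Each peak carries the score written by the peak caller MACS, a p-value put on a scale of −log10 and multiplied by 10. The lowest score in both lists was 40, a p-value of 0.0001. A score of 50 equals a p-value of 1e-05. With 1 library per antibody there is no replicate error and no test between groups, and the lists give no read counts, so the depth behind a peak is unknown. Scores depend on depth and on peak width, and they were therefore ranked within a list and not compared between lists. A site below the lowest score is simply not listed, so the lack of a peak does not show a lack of binding. In dissociated bulk tissue, weak binding in many cells and strong binding in few cells cannot be told apart.

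The sequences of the 2 gene starts without a peak and of 3 of the sites with one are given here so that the letters can be read beside the peak values. All are from the mm9 assembly and written 5′ to 3′. Capitals mark matches to 4 short motifs searched on both strands, namely GACCACCCA for GLI factors, CAATAAA for HOX13 factors, CATCTG as an E-box and GGCGCC for SMAD factors. A match is a run of letters and not a measured binding site. The 250 bases before the Grem1 start, at chr2:113598804-113599053 on the minus strand, were 71.6% G and C.
Grem1: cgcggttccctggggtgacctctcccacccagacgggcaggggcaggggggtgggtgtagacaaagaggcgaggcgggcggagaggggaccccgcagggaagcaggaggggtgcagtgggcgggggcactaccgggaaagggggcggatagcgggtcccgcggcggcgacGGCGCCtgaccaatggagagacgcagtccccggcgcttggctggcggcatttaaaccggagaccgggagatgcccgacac
The 250 bases before the first Fmn1 start, at chr2:113167643-113167892 on the plus strand, were 60.8% G and C.
Fmn1: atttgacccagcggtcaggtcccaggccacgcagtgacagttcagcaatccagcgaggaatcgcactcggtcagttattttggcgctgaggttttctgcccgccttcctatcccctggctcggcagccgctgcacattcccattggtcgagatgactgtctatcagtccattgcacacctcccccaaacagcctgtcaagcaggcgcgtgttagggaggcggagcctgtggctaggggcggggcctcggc
The middle 300 bases of the Med12 peak in the Fmn1 intron, at chr2:113531766-113532065 on the plus strand, were 36.3% G and C.
Fmn1 intron: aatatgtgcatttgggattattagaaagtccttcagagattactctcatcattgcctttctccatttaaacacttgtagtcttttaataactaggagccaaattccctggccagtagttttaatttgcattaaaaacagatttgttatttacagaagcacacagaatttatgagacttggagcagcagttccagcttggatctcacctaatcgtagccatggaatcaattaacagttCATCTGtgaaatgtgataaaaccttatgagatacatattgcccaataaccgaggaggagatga
The middle 300 bases of the Med12 peak in the Scg5 intron, at chr2:113645850-113646149 on the plus strand, were 47.3% G and C.
Scg5 intron: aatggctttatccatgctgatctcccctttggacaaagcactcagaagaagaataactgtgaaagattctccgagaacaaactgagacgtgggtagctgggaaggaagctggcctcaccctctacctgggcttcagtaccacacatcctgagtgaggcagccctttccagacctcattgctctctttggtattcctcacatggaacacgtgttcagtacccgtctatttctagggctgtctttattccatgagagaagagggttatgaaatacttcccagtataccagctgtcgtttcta
The middle 300 bases of the Med12 peak at the Arhgap11a start, at chr2:113688976-113689275 on the minus strand, were 43% G and C.
Arhgap11a start: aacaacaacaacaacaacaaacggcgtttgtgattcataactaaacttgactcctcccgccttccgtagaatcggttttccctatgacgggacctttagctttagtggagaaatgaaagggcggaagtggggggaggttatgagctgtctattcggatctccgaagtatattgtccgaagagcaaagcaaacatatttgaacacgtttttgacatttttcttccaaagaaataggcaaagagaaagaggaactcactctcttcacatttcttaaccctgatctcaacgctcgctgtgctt

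The 2 start sequences were rich in CpG dinucleotides. The Grem1 stretch held 24 CpGs, an observed-to-expected ratio of 0.8, and the Fmn1 stretch held 15, a ratio of 0.65. The Fmn1 intron stretch held 2 CpGs at a ratio of 0.202 and the Scg5 intron stretch 5 at a ratio of 0.299. The Arhgap11a stretch, which lies directly upstream of that gene, held 13 CpGs at a ratio of 0.938. Thus the 2 intronic Med12 sites were poor in CpG and the 3 start sequences were not. Over all 69965 coding-gene start windows of the same 250 bases the median G and C content was 54.8%, and over the middle 300 bases of all 10634 Med12 peaks it was 42.3%.

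The Grem1 stretch held 1 match to GGCGCC, starting at base 171 of the printed sequence, and these letters occurred in 11.1% of the coding-gene start windows. The Fmn1 intron stretch held 1 match to CATCTG, starting at base 238, and 21.8% of the Med12 stretches held one. The Fmn1 start, Scg5 intron and Arhgap11a stretches held no match to any of the 4 motifs. GACCACCCA occurred in none of the 5 stretches, beside 0.213% of the start windows and 0.292% of the Med12 stretches. CAATAAA also occurred in none of them, beside 3.19% of the start windows and 11.1% of the Med12 stretches.

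**Figure D1:**
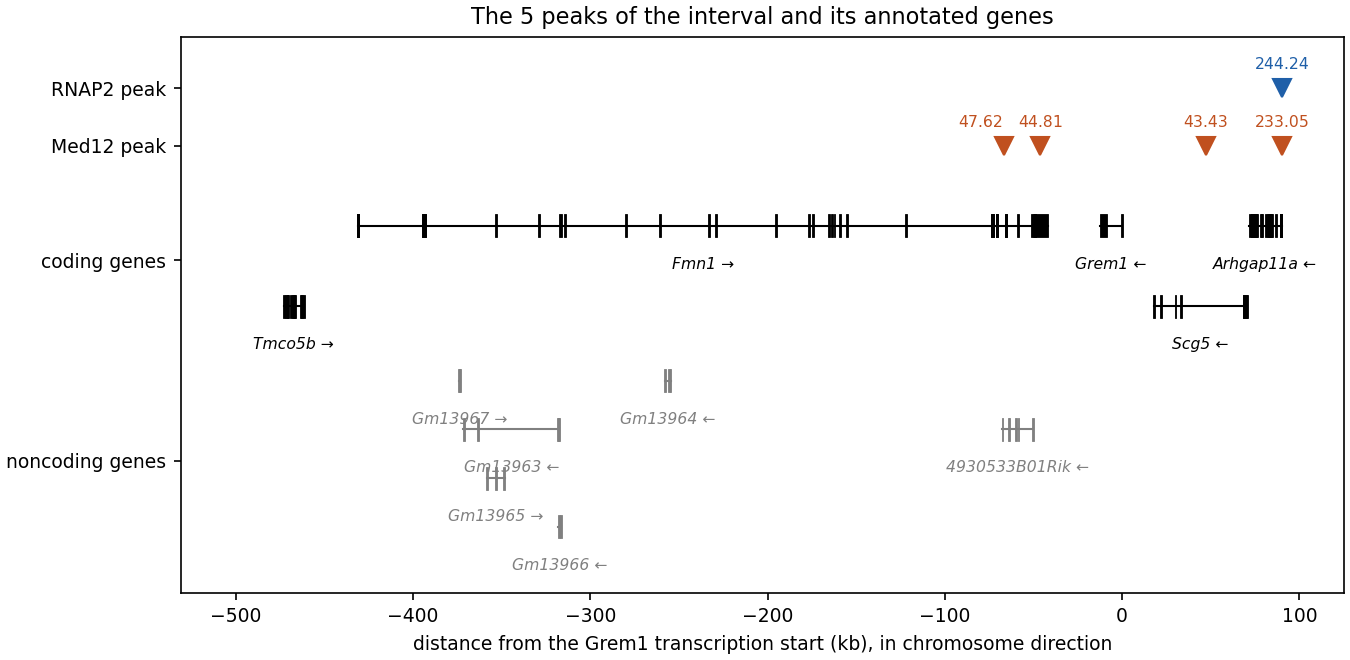
The 5 peaks of the interval (triangles, with their scores) above the annotated coding genes (black) and noncoding genes (grey), by distance from the Grem1 transcription start in kb. Boxes are exons, drawn at least 1 kb wide, lines are introns and arrows give the direction of transcription. RNAP2 has a single peak, at the Arhgap11a start, and the 2 Fmn1 peaks of Med12 lie at the 3′ end of that gene.

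Grem1 lies at chr2:113586321-113598803 on the minus strand and has 1 annotated transcript, whose start is base 113598803. Neither list had a peak in its 12483 bp. The nearest Med12 peak began 45.9 kb from the start and had a score of 44.81. The nearest RNAP2 peak lay 89.4 kb from the start and had a score of 244.24. From base 113552918 to base 113645650 neither list had a peak, a stretch of 92.7 kb that contains the whole of Grem1. The sequence within 1 kb of the Grem1 start held 0 unknown bases. A search of the genome for copies of at least 50 bp with 95% or more identity found 0% of it elsewhere.

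Over all 22367 coding genes, 42.2% had an RNAP2 peak within 1 kb of a start, 9.37% had a Med12 peak there and 8.66% had both. A coding gene without either, such as Grem1 or Fmn1, was therefore the more common case. By distance, 24.1% of coding genes were as far from the nearest RNAP2 peak as Grem1 or farther, and 64.2% were as far from the nearest Med12 peak or farther. The median over coding genes was 11.5 kb for RNAP2 and 82.6 kb for Med12. Grem1 was thus farther from RNAP2 than the median coding gene and, with Med12 peaks of all scores counted, nearer to Med12. Its nearest Med12 peak scored 44.81. The nearest one scoring 50 or more was that at Arhgap11a, with its centre 90.3 kb away. Where a coding start did carry a peak, the median score was 383 for RNAP2 and 66.7 for Med12.

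Fmn1 lies at chr2:113167893-113556924 on the plus strand, is 389032 bp long and has 12 annotated transcripts with 10 different starts. Its last base is separated from the 3′ end of Grem1 by 29396 bp, and the 2 genes are transcribed towards each other. No Fmn1 start had a peak of either list within 1 kb. The first starts, at bases 113167893 to 113167939, were 364 kb from the nearest Med12 peak and 520 kb from the nearest RNAP2 peak. The closest starts to a Med12 peak were the downstream ones, at 3269 bp for Fmn1-204, which starts at base 113528280, and 3384 bp for Fmn1-005, which starts at base 113548828. The start nearest to an RNAP2 peak was still 139 kb away. Taking the closest of its starts, 18.2% of coding genes were as far from RNAP2 as Fmn1 or farther, and 88.7% were as far from Med12 or farther. The RNAP2 share rests on the downstream start Fmn1-005. The Med12 share rests on the downstream start Fmn1-204 and on a peak scoring 47.62. Neither share describes the first starts, 520 kb from RNAP2 and 364 kb from Med12. Of the sequence within 1 kb of the first Fmn1 start, 10.5% was found elsewhere in the genome, and 0 bases were unknown.

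**Figure D2:**
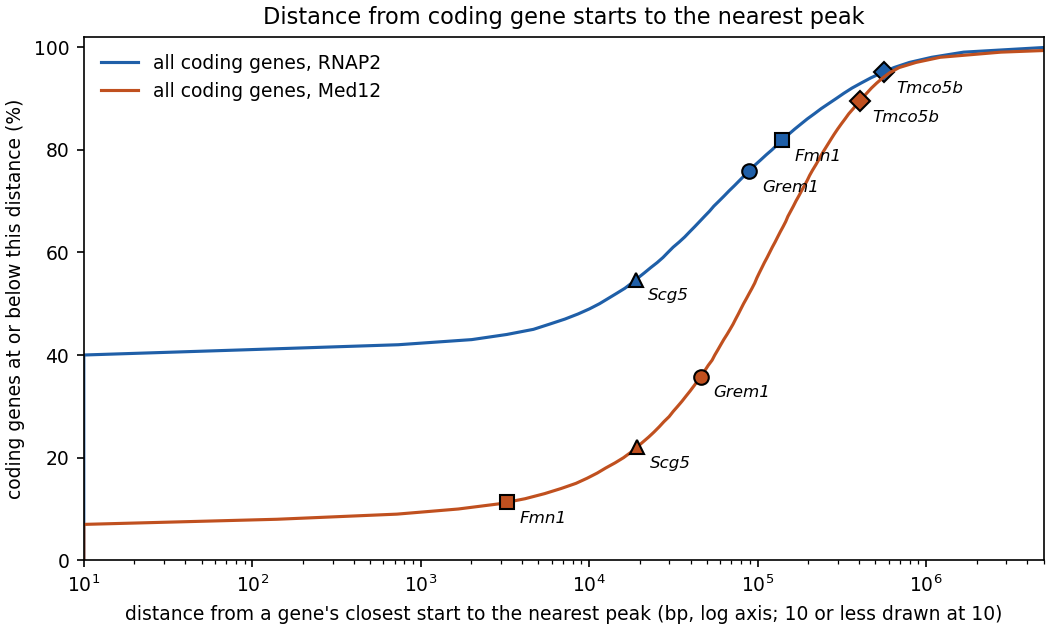
Share of the coding genes (y axis, %) whose closest start lies within a given distance (x axis, bp, log scale) of the nearest RNAP2 peak (blue) or Med12 peak (orange), with Grem1, Fmn1, Scg5 and Tmco5b marked on both curves. For RNAP2, Grem1 and Fmn1 sit in the upper part of the curve, and for Med12 they sit in the lower part.

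Of the 389032 bp of Fmn1, 96% was intronic when the exons of all transcripts were merged into 27 segments. These left 26 introns, of which 1 carried a peak. That Med12 peak lay at chr2:113531549-113532283, was 735 bp wide and had a score of 47.62, a p-value of 1.73e-05, so with a score of at least 50 the count of Fmn1 intron sites was 0. It lay in the 22nd of the merged introns, 4848 bp long, at 3231 bp from the exon before it and 882 bp from the exon after it. Its centre was at 93.6% of the gene's length and 66.9 kb from the Grem1 start. The same bases are also within an intron of 4930533B01Rik, a noncoding gene on the opposite strand. Its score placed it 7474th of the 10634 Med12 peaks, with 29.6% of the list below it.

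The other Fmn1 peak was also from Med12, at chr2:113552212-113552917, 706 bp wide, with a score of 44.81 and a p-value of 3.3e-05. It lay in the last exon of the longest gene models, in the 3′ untranslated region, with its centre 2950 bp beyond the last coding base. Shorter models end at or before base 113550012, at least 2199 bp before the peak, so on those models the site is downstream of the gene. It was 8467th of the Med12 list, with 20.3% of the list below it, and 46.2 kb from the Grem1 start. Both Fmn1 sites were thus near the end of the gene that faces Grem1, and were 19928 bp apart. The first 364 kb of Fmn1, 93.5% of its length, had no peak of either list.

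Scg5 encodes secretogranin V, a chaperone of a prohormone convertase, and lies on the other side of Grem1. It held a Med12 peak at chr2:113645651-113646349, 699 bp wide, with a score of 43.43 and a p-value of 4.54e-05. This peak lay in an intron of 35309 bp, 47.2 kb from the Grem1 start, and 15.3% of the Med12 list scored lower. The Med12 sites in the Fmn1 last exon and in the Scg5 intron were thus at nearly equal distances from the Grem1 start, on opposite sides. The nearest peaks of both lists to the starts of Scg5 itself were those at Arhgap11a, at 18879 bp for RNAP2 and 19370 bp for Med12.

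The 3 Med12 sites in Fmn1 and Scg5 were alike in their values. All had scores under 50, widths between 699 and 735 bp and no overlapping RNAP2 peak, and 0% of their sequence was found elsewhere in the genome. In the whole Med12 list 35.9% of peaks scored under 50. Of these low-scoring peaks 20.6% overlapped an RNAP2 peak, beside 55% of the 6818 peaks that scored 50 or more, so sites of Med12 alone were the common case at such scores.

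**Figure D3:**
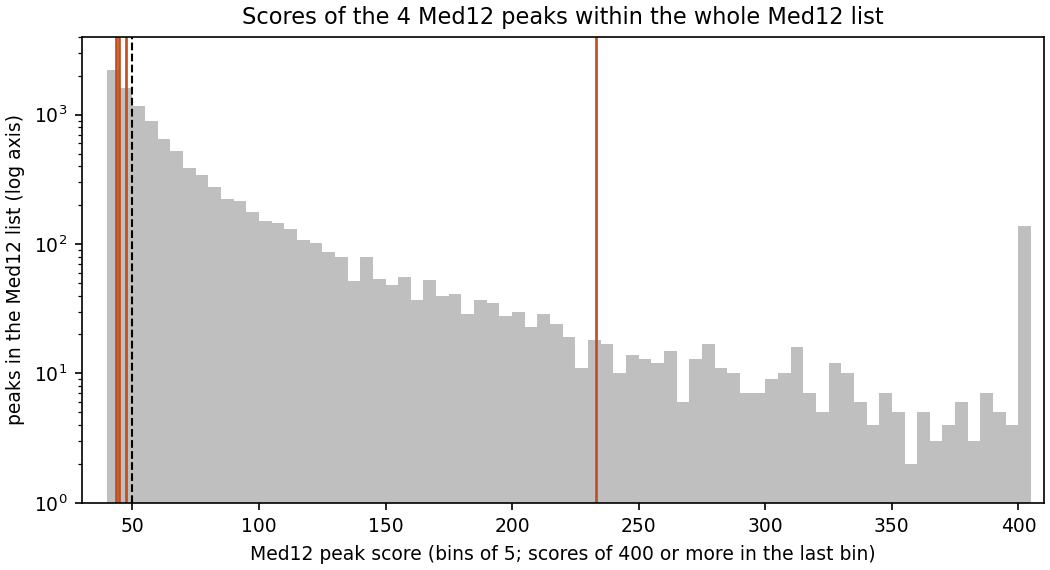
Number of Med12 peaks (y axis, log scale) by score (x axis, bins of 5, with all scores of 400 or more in the last bin). Orange lines mark the 4 Med12 peaks of the interval and the dashed line marks a score of 50, with 3 of the 4 peaks between the lowest score of 40 and that line.

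The site with both proteins was at the start of Arhgap11a, which encodes a GTPase-activating protein and is known as a gene of dividing cells. The RNAP2 peak lay at chr2:113688157-113689730, was 1574 bp wide and had a score of 244.24, a p-value of 3.77e-25. It was 6776th of the 20479 RNAP2 peaks, with 66.9% of the list below it. The Med12 peak lay at chr2:113688648-113689603, was 956 bp wide and had a score of 233.05, a p-value of 4.95e-24. It was 429th of the Med12 list, with 96% of the list below it. The Med12 peak lay wholly inside the RNAP2 peak and covered 60.7% of it. The centres were 125 bp (RNAP2) and 307 bp (Med12) upstream of the outermost Arhgap11a start, at base 113688818, and 90.1 and 90.3 kb from the Grem1 start.

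Thus, of the 4 Med12 peaks of the interval, 1 overlapped RNAP2, beside 42.7% of all Med12 peaks, and the single RNAP2 peak overlapped Med12, beside 21.7% of all RNAP2 peaks. No site in Fmn1 carried both proteins. The fifth coding gene of the interval, Tmco5b, had no peak and was 562268 bp from the nearest RNAP2 peak and 405660 bp from the nearest Med12 peak. The 6 noncoding genes of the interval, which include the pseudogene Gm13967, had no peak within 1 kb of a start either. The share over all noncoding genes is not given here, so this count has no background beside it.

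Beyond the interval, the lists were empty on the Fmn1 side over a long distance. RNAP2 had no peak from base 112333549 to base 113688156, a stretch of 1.35 Mb in which Ryr3, Gm17411, Tmco5b, Fmn1, Grem1 and Scg5 start. It ended at a peak with a score of 48.13 by Aven and at the Arhgap11a peak. Of the 20458 stretches between neighbouring RNAP2 peaks 1.16% were as long or longer, and the median was 34.7 kb. The corresponding Med12 stretch ran from base 112295664 to the Fmn1 intron peak, 1.24 Mb, and 2.18% of the Med12 stretches were as long or longer, with a median of 118 kb. The peaks just outside the interval were, for RNAP2, 734 kb before it (score 48.13) and 146 kb after it (score 71.86), and for Med12, 772 kb before it (score 55.36) and 365 kb after it (score 51.97).

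**Figure D4:**
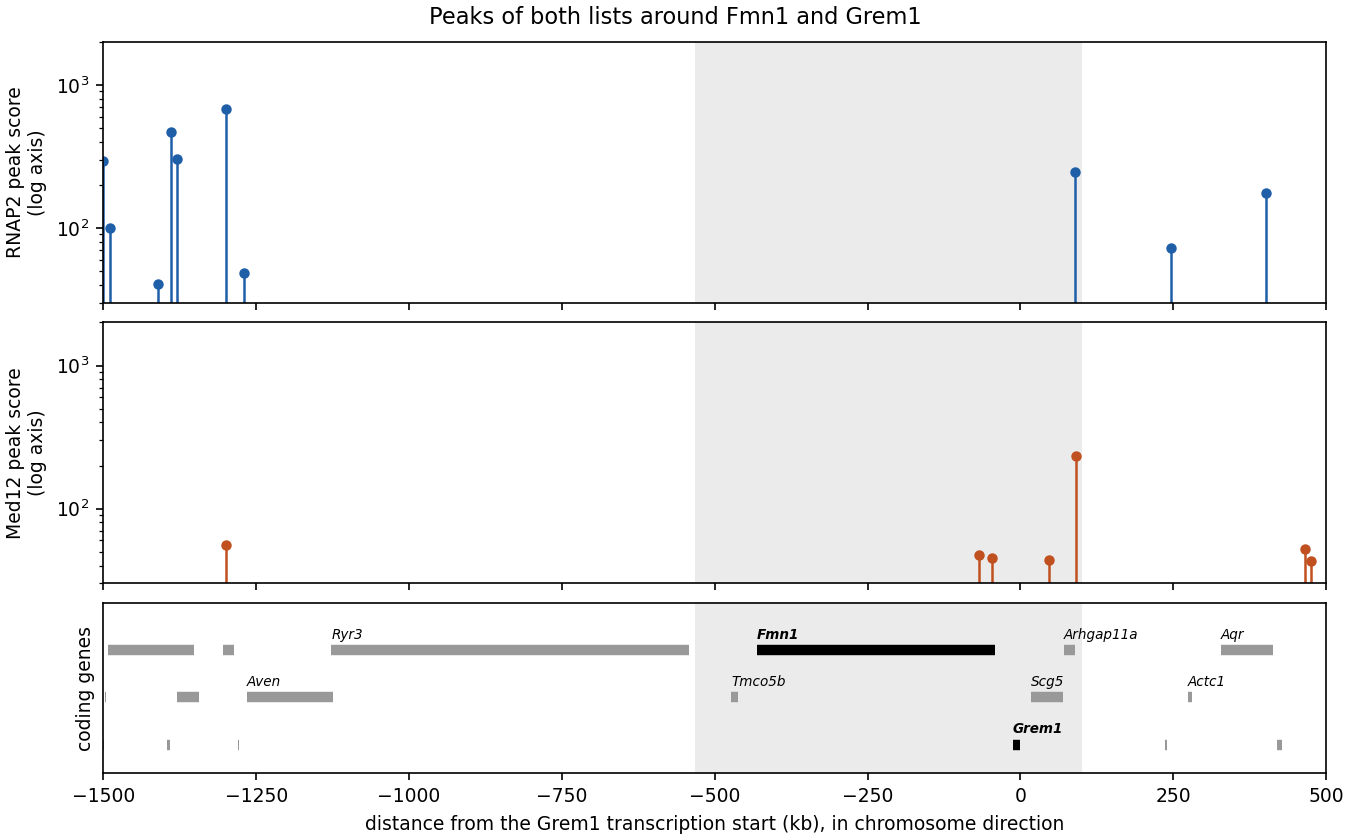
Scores (log axis) of the RNAP2 peaks (top) and Med12 peaks (middle) by distance from the Grem1 transcription start in kb, with coding genes below and the interval shaded. No RNAP2 peak lies between the one by Aven and the one at Arhgap11a, 1.35 Mb apart, and the Med12 peaks of the interval lie near Grem1.

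The number of peaks was set beside that of other windows of the genome. Among 4198 windows of the same length, 37.3% held at most 1 RNAP2 peak and the median was 3. At least 4 Med12 peaks were found in 26.7% of the windows, with a median of 2, and at least 1 RNAP2 peak that overlaps Med12 in 48.3%. Of the 244 windows with 5 coding genes, as here, 21.3% held at most 1 RNAP2 peak, and the median was 4.

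Fmn1 was also compared with the 988 coding genes of at least 194516 bp, 50% of its length. Of these, 32.3% had no RNAP2 peak in the body, as Fmn1 did, and 48% had an RNAP2 peak within 1 kb of a start, which Fmn1 did not. As many Med12 peaks as Fmn1, 2, or more were found in 43.4% of them. The pattern of no RNAP2 peak with at least 2 Med12 peaks was found in 43 genes, 4.35%. Both of these shares count Med12 peaks of all scores. The 2 Med12 peaks of Fmn1 scored 47.62 and 44.81, so neither would be counted at a score of at least 50. At least 1 site with both proteins lay in 34.6% of these genes and in none of the Fmn1 body. Among genes of nearly the same length, Palld, which encodes the actin-associated protein palladin, had 6 RNAP2 and 3 Med12 peaks, Rarb, a retinoic acid receptor gene, had 4 and 2, Hecw2 had 3 and 0, and Myo3b, an unconventional myosin gene, had 0 and 3.

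The other BMP antagonists differed from one another at their starts. With Grem1 counted among them, RNAP2 peaks lay within 1 kb of a start for 7 of 11 antagonist genes, and Med12 peaks for 0 of 11, beside the 42.2% and 9.37% of all coding genes. Nog, which encodes Noggin, had an RNAP2 score of 513.4, and Bmper had 388.65. Dand5 had 256.17, Twsg1 136.97 and Nbl1 112.56. Fst, which encodes Follistatin, had 58.73, and Sostdc1 had 44.58, close to the lowest score of the list. The 4 antagonists without an RNAP2 peak at a start were Grem1, Chrd (Chordin), Sost (Sclerostin) and Cer1. Of these, Grem1 at 89.4 kb was farther from the nearest RNAP2 peak than Cer1 at 5473 bp, Chrd at 14809 bp and Sost at 16745 bp.

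Among the 13 formin genes, 7 had an RNAP2 peak at a start and 2 had Med12, beside 42.2% and 9.37% of all coding genes. Daam1, which acts in Wnt signalling to the cytoskeleton, had an RNAP2 score of 947.09, Fmnl2 840.01, Fmnl3 819.88 and Diaph1 569.15. Daam2 had an RNAP2 score of 358.46 with a Med12 score of 58.05, and the Med12 score of Diaph1 was 77.01. Fhod1 had an RNAP2 score of 265.72 and Diaph3 one of 166.56. Fmn1 was among the 6 formins with neither, with its paralogue Fmn2, Fmnl1, Diaph2, Inf2 and Fhod3.

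Genes of the signalling loop that Grem1 belongs to were counted in the same way. Of 27 limb signalling genes, 21 had an RNAP2 peak within 1 kb of a start, beside 42.2% of all coding genes. Med12 was found at 11 of them, beside 9.37%, and both at 10, beside 8.66%, whereas 5 had neither. Of the Hedgehog pathway, the receptor gene Ptch1 had scores of 1660.07 for RNAP2 and 143.09 for Med12, and the transcription factor gene Gli2 had 2833.65 and 137.43. Gli3, which encodes the main Gli repressor of the limb, had an RNAP2 score of 2636.8 and no Med12 peak there. Hand2, a posterior factor upstream of Shh, had 3100 and 272.24. A score of exactly 3100 was shared by 311 RNAP2 peaks and exceeded by 18, so genes at this value are not ranked among themselves. Gli1, a target of the pathway, was the single gene with Med12 alone, at a score of 114.42. That peak lay 954 bp from the nearest Gli1 start, just inside the 1 kb limit.

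On the BMP side, the ligand genes Bmp2 and Bmp7 had RNAP2 scores of 443.92 and 365.5, and Bmp4 had no peak within 1 kb, its nearest RNAP2 peak being 2112 bp away. The receptor genes Bmpr1a and Bmpr1b had RNAP2 scores of 2190.13 and 823.32. The BMP target genes Id1, Id2 and Id3 all had an RNAP2 score of 3100, with Med12 scores of 1759.08, 145.25 and 500.01, and Msx1 and Msx2 had RNAP2 scores of 3100 and 1833.55 and no Med12 peak. Smad1, Smad4 and Smad5, which carry the BMP signal into the nucleus, had RNAP2 scores of 1144.26, 604.93 and 1000.26, and Smad5 also had a Med12 score of 89.69. All the listed BMP receptor, Smad and target genes thus had an RNAP2 peak at a start, beside 42.2% of all coding genes. The ligand gene Bmp4 had none, nor did the antagonist genes Grem1, Chrd, Sost and Cer1.

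The 6 listed signalling genes without an RNAP2 peak at a start included several secreted signals. Shh, made in a small posterior domain, was 75814 bp from the nearest RNAP2 peak, and Fgf4, Fgf8 and Fgf17, made in the ectodermal ridge, were 53247, 1447 and 16247 bp away. Fgf9, also a ridge signal, had scores of 95.2 for RNAP2 and 97.51 for Med12, and Fgf10, its mesenchymal counterpart, had an RNAP2 score of 99.97. The rest of the 6 were Bmp4 and Gli1, which was 28842 bp from the nearest RNAP2 peak. The fibroblast growth factor receptor genes Fgfr1 and Fgfr2 had RNAP2 scores of 1021.6 and 1425.34, and Fgfr2 had a Med12 score of 120.69.

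**Figure D5:**
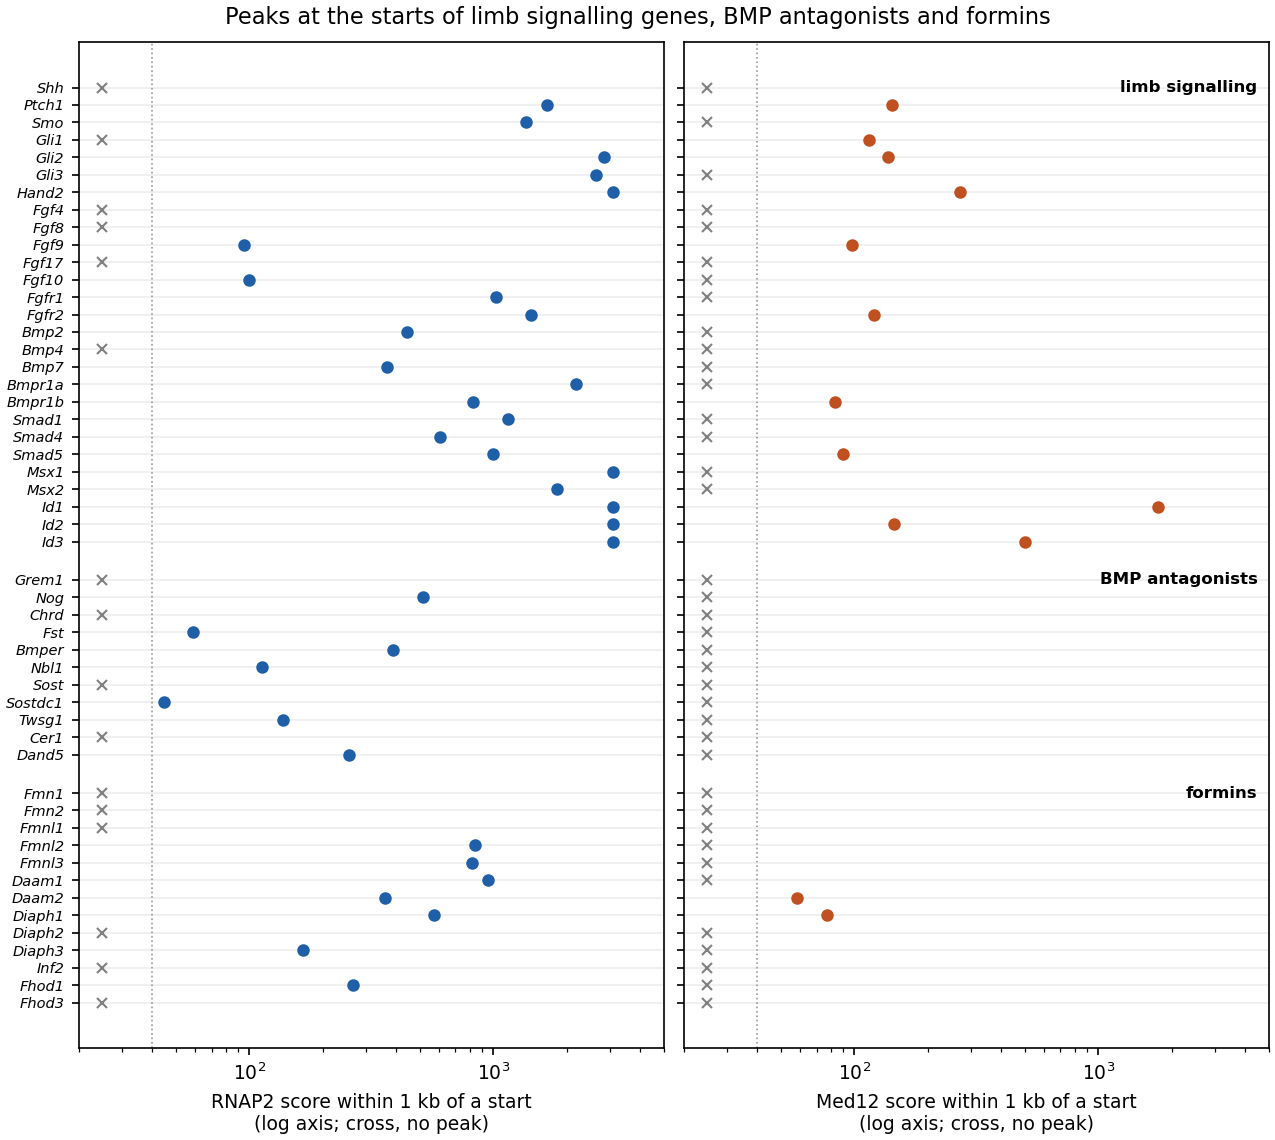
Highest score of a peak within 1 kb of a start (log axis) for RNAP2 (left) and Med12 (right) at limb signalling genes, BMP antagonists and formins. Crosses mark genes without such a peak and the dotted line is the lowest score of the lists, 40. Grem1 and Fmn1 have crosses in both panels, and 21 of the 27 limb signalling genes have an RNAP2 peak, beside 42.2% of all coding genes.

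Marker genes of cell types were counted in the same way. The lists were chosen with earlier results of these data known, so the counts are no check of the labelled tissue. All 10 marker genes of distal limb mesenchyme had an RNAP2 peak at a start, and 4 also had Med12, beside 42.2% and 9.37% of all coding genes. Of the hindlimb genes, Tbx4 had no peak and Pitx1 had an RNAP2 score of 99.35. None of the 4 limb ectoderm, 3 muscle, 4 endothelial and blood or 3 neural marker genes in the annotation had a peak of either list at a start. Whether the share of cells that express Grem1 bears on its lack of a peak was not tested.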

How the data were processed

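The peak lists of RNAP2 and Med12 were used as deposited. Per the study's methods and the submitters' processing notes, the authors removed the leading base of reads, aligned them against mm9 using Bowtie, discarded duplicates and ran MACS 1.4.1 with a p-value threshold of 1e-05, and the input is not named as control among the settings. Each deposited peak has a score, the −log10 of a p-value multiplied by 10, and the lowest deposited score is 40, less strict than that threshold, which equals a score of 50. Peaks were called on 1 library each.

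The peak files, the genome and the GENCODE vM1 annotation share the build mm9 (NCBIM37). Peak starts, which count from 0 in the files, were written counting from 1. Peaks were assigned, counted and overlapped (at least 1 bp) with Python 3.11.15 and numpy 2.4.6, and bedtools 2.31.1 and simulated lists were used to check the overlaps. A peak was intronic when its centre lay outside every annotated exon of the gene. A start had a peak when one lay within 1 kb of any annotated transcript start. Sequences were read with pyfaidx 0.9.0.4 and searched with blastn 2.17.0. Figures were drawn with matplotlib 3.10.9.

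Windows of the interval's length were laid end to end over all chromosomes as a background. The text gives every peak in the interval, the coding genes there and counts over lists of genes by pathway, family and cell type. The interval, the gene lists and the motifs were chosen with earlier results of these data known. Some genes of these lists are not reported here. No test was run, because each antibody has 1 library. Stricter scores, other flanks, other overlaps and a wider start interval were tried as alternatives.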

Additional observations from a re-analysis of the deposited data

How the results depend on the processing

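For 13 results, 41 values were recomputed under 9 other settings, of which 32 stayed within 1.5 times the reported value. A value of 0 cannot rise under a stricter score, overlap or exon rule, so those among the 32 are no check. The Arhgap11a site was likewise bound to stay under stricter scores, since its peaks scored 244.24 and 233.05. It was bound to stay under the other overlap rules too, since its Med12 peak lies wholly inside the RNAP2 peak. The 32 also include the Med12 count at a flank of 50 kb, 3 instead of 4. Another is the rank of the interval by sites with both proteins, 1053 among 4188 shifted windows instead of 1067 among 4198. All windows with exactly 1 such site share that rank. No paired analysis was possible because there is a single library per antibody. With a flank of 50 kb instead of 100 kb, the Arhgap11a start falls outside the interval, so the count of RNAP2 peaks was 0 instead of 1, and the counts of RNAP2 peaks with Med12 and of Med12 peaks with RNAP2 were each 0 instead of 1. With a score of at least 50 the Med12 peaks of the interval were 1 instead of 4, and those in Fmn1 introns were 0 instead of 1. With a score of at least 100 they were again 1 and 0. All sites in the Fmn1 body are thus lost at the threshold that the study's methods state. When peaks up to 5 kb from a start were taken instead of 1 kb, the Med12 score at an Fmn1 start was 47.62 instead of 0, since the intronic peak lies 3269 bp from the start of Fmn1-204. Fmn1 had 0 sites with both proteins, so its rank among the 988 long genes was the last place, shared with every gene without such a site. That last place was rank 343, and rank 163 at a score of at least 100, where fewer genes have such a site. The lists hold no counts, so the smallest enrichment that could have been seen at the Grem1 and Fmn1 starts is unknown.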
